A study of Mus musculus with 6 samples.

Results

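The Schlafen genes are a family that in the mouse lies in 1 cluster on chromosome 11. Its 7 members described here are Slfn1, Slfn2, Slfn3, Slfn4, Slfn5, Slfn8 and Slfn9, picked by symbol from the 20494 rows of the authors' deposited table, in which each of the 7 has 1 row. The family was proposed with the knockout comparison of the same table already known, so the direction and size of its values in that comparison are a description and carry no test of their own. A further 4 rows bear a Slfn symbol and are no members: the pseudogene Slfn10-ps, Slfn14, the antisense transcript Slfn5os and Slfnl1, a gene of chromosome 4.

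Whole lungs were taken from untreated male C57BL/6 mice, 4 months old, of 2 genotypes, wild type and lincRNA-Cox2 KO, with 3 libraries each. LincRNA-Cox2 is a long noncoding RNA gene beside Ptgs2 on chromosome 1, and how its knockout allele was made, and whether the mice were littermates, is not given in the sources used here. The authors' deposited table holds the mean normalized count (a gene's reads divided by a library's size factor) of each genotype and the authors' DESeq2 comparison, and no value of a single library. Its means sum to 3.71e+07 normalized counts per wild type library and 3.68e+07 per knockout library, and 16902 rows have an adjusted p. The targeted transcript had means of 311 normalized counts in wild type and 0.666 in knockout in the authors' deposited table. Lung epithelial genes were abundant, with Sftpc, the surfactant protein C gene, at 82187 and 83359 normalized counts in wild type and knockout there.

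Schlafen proteins are known mainly from blood cells, where several are induced by interferon and by activation. Slfn1 and Slfn2 encode short proteins, Slfn3 and Slfn4 proteins of middle length, and Slfn5, Slfn8 and Slfn9 long proteins that carry a helicase-like part. Slfn2 is known for keeping T cells and monocytes quiescent and for protecting transfer RNA from cleavage, Slfn4 for its expression in myeloid cells such as neutrophils and macrophages, and Slfn5 as an interferon-inducible gene found in many cell types.

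The members are close in sequence to different degrees, which matters for how reads can be assigned to them. Among the longest coding sequences of GENCODE M21, Slfn1 has 1011 bases and Slfn2 1134, Slfn4 1806 and Slfn3 1920, Slfn5 2652, and Slfn8 and Slfn9 2730 each. Slfn8 and Slfn9 were identical at 92.7% of 2730 aligned bases, and Slfn3 and Slfn4 at 92.3% of 1785. Slfn1 and Slfn2, the short pair, were identical at 71.3%, and Slfn5 reached at most 63.6% with another member, Slfn9. Of the distinct stretches of 50 bases (the read length) in the transcripts of Slfn4, 8.15% also occurred in another Schlafen transcript, 6.28% in those of Slfn3. For Slfn8 this share was 14.6% and for Slfn9 11.2%, the pseudogene Slfn10-ps being the main partner of both, whereas it was 4.27% for Slfn2 and 0.606% for Slfn1. Counting any other gene, the share was 16.0% for Slfn3 and 11.3% for Slfn4, with Gm11427 as the main partner outside the family for both, 11.9% for Slfn9, and 11.1% for Slfn5, mainly with Slfn5os. How reads of such stretches were counted is not given in the sources used here, so the values of Slfn3, Slfn4, Slfn5, Slfn8, Slfn9 and Slfn10-ps are uncertain.

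The member promoters were compared by motif and by identity. In the 250 bases before to 50 after each RefSeq start (GRCm38.p6), an interferon-stimulated response element, searched on both strands as GAAA, any 2 bases and GAAA again, was present in Slfn5, Slfn8 and Slfn9 and in 3.44% of all 32851 promoters. Members were counted by gene, over any of its starts, and counted so the share was 3.99% of 27025 genes. These are the 3 long members, shown here because the element is the one through which interferon-activated factors act. Each stretch of 60 bases lies before a RefSeq start, and capitals mark the match (on the opposite strand in Slfn8 and Slfn9). The GENCODE model of Slfn5 begins earlier, at 82951349, so its stretch lies inside that model.
Slfn5, chr11:82951922-82951981, plus strand: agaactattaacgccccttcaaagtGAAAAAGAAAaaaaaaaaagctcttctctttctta
Slfn8, chr11:83020824-83020883, minus strand: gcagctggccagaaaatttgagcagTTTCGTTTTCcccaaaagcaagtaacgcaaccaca
Slfn9, chr11:82991841-82991900, minus strand: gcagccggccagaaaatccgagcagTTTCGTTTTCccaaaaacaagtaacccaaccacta
The match begins 48 bases before the start in Slfn8 and 45 bases in Slfn9, against 155 in Slfn5, where it runs into a stretch of A. In Slfn8 the same match also lies 136 bases before another RefSeq start. Over their 250 bases before the start, the promoters of Slfn8 and Slfn9 were identical at 85.1% of 242 aligned bases. Those of Slfn3 and Slfn4, the other pair close in coding sequence, were identical at 58.1% of 186. For Slfn1 and Slfn2 it was 69.8% of 179. A pair further apart in coding sequence came close to that, Slfn2 and Slfn8 at 68.4% of 190 (60.5% in coding sequence). Promoter identity thus did not follow coding identity throughout.

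The 4 other members shared a different string. ACTTCCTGG, which holds the GGAA core of ETS factors on its opposite strand, was chosen after the member promoters were seen and then searched on both strands. It was present in Slfn1, Slfn2, Slfn3 and Slfn4, in no other member, and in 0.843% of all promoters (0.999% of genes). Because the string was taken from these promoters, its presence in the 4 follows from the choice. Set beside that share, it shows no enrichment. The 60 bases around it are shown because Slfn4, the gene with the largest difference, shares it with 3 neighbours whose differences were small.
Slfn1, chr11:83116721-83116780, plus strand: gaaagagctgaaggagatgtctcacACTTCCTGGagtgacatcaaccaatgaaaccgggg
Slfn2, chr11:83065032-83065091, plus strand: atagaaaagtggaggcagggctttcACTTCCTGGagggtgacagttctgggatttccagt
Slfn3, chr11:83191263-83191322, plus strand: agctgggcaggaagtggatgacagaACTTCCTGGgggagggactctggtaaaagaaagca
Slfn4, chr11:83175088-83175147, plus strand: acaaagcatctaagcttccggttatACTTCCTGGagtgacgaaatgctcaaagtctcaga
The string begins 74 bases before the start in Slfn1 and 73 in Slfn4. It begins 55 bases before the start in Slfn2 and 42 in Slfn3. Exact matches of a STAT site (TTCNNNGAA), a PU.1 site (GAGGAAGT) and an NF-kB site (GGG, any 2 bases, TTTCC) were found in 0 of the 7 members. They were found in 8.30%, 3.20% and 1.63% of all promoters, or 9.55%, 3.69% and 1.89% of genes. Read on its opposite strand, ACTTCCTGG holds AGGAAGT, the PU.1 string without its first G. In Slfn1, Slfn2, Slfn3 and Slfn4 the absence of a PU.1 match there rests on that base.

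All 7 members were detected in lung, at very different levels. Divided by the exon length of each gene, wild type levels ran from 1636 normalized counts per kb in Slfn5 and 1286 in Slfn2 to 216 in Slfn1 and 93.9 in Slfn8. Slfn3 and Slfn4 stood next to each other, at 50.4 and 50.0 normalized counts per kb in wild type, and Slfn9 was lowest at 22.9. In knockout Slfn4 stood at 113 normalized counts per kb and Slfn3 at 60.9, so that Slfn4 came close to Slfn8 (118). The rest of the order was kept. Slfn5 alone made up 75.1% of the summed wild type means of the family.

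**Figure D1:**
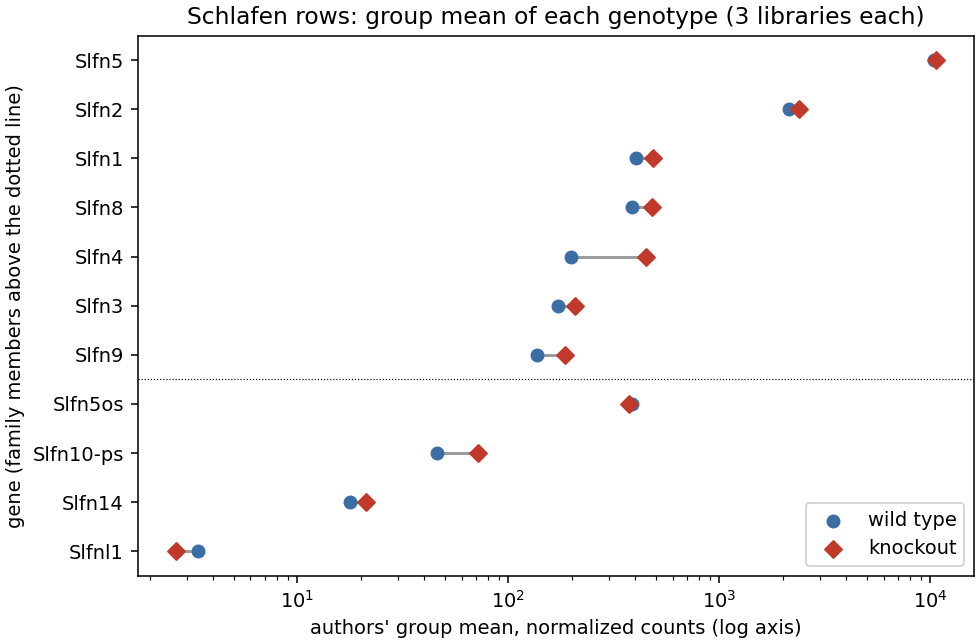
Authors' group mean of each Slfn row in wild type (circles) and knockout (diamonds), in normalized counts on a log axis; the 7 members are above the dotted line, and a mean stands for 3 libraries. Slfn4 moves from 198 to 449 while Slfn5, the highest, stays near 10349 and 10642.

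In the knockout the family's means were higher throughout, and the authors' comparison called 1 of them. Slfn4 was 2.26-fold higher, and the other 6 members were between 1.03-fold and 1.36-fold higher. At an adjusted p under 0.05 in the authors' DESeq2 comparison, 1 of the 7 members was called higher and 0 lower, against 0.592% of all 16902 tested rows called higher and 0.497% called lower. Before adjustment 5 of the 7 had a p under 0.05 and were higher (Slfn1, Slfn2, Slfn4, Slfn8 and Slfn9), against 4.43% of all tested rows. A knockout mean above the wild type mean was found for 7 of 7 members and for 49.4% of tested rows, and a knockout mean at least 1.1 times that of wild type for 6 members and 13.2% of tested rows. The median log2 ratio of group means was 0.27 over the members and -0.00 over all tested rows, and 0.27 over the members without Slfn4. These values were in view when the family was chosen, and nothing is read from the counts beyond this description. The replicates are taken as separate mice, and if they are not, the p-values measure only a spread that may be technical. In whole lung, more cells of a type and more RNA per cell cannot be told apart.

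Slfn4 (kgCluster4537, plus strand, chromosome 11 from 83175186 to 83190216 in mm10) had means of 198 normalized counts in wild type and 449 in knockout in the authors' deposited table. The log2 ratio of these means was 1.18 ± 0.21, where the approximate standard error is the ratio divided by the deposited Wald statistic. The authors' shrunken log2 fold change was 0.46 ± 0.083 (SE), with a DESeq2 adjusted p of 1.94e-05, rank 31 of the 16902 tested rows by p. The Wald statistic implies a coefficient of variation between libraries of 17.1%. This is a modelled value, which DESeq2 draws towards that of other genes, and not the spread of Slfn4 alone. Slfn4 thereby went from 1.44% to 3.02% of the family's summed means.

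Values of Slfn4 in single libraries could be narrowed to a few sets. Each group mean is a sum of whole reads weighted by 3 library factors, and the printed digits allow 5 sets of reads for wild type and 3 for knockout. The most even wild type sets held 240, 147 and 204 reads in libraries A, B and C, or 222, 235 and 137 (letters only name the 3 libraries within a genotype and match no label). Their coefficients of variation were 23.6% and 24.6%. The most even knockout set held 326, 511 and 516 reads, equal to 318, 501 and 528 normalized counts, with a coefficient of variation of 25.4%. With these sets every knockout library lay above every wild type library, whose highest value was 236 or 233 normalized counts.

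The remaining sets were uneven. In wild type they ran as far as 186, 411 and 3 reads (coefficient of variation 102%), and in knockout they were 126, 377 and 835 reads (82.9%) and 992, 112 and 263 reads (102%). Of the 15 ways to pair a wild type with a knockout set, 3 left the genotypes without overlap, and the means alone do not say which pair holds. The 2 pairs of the most even sets had pooled coefficients of variation of 24.5% and 25.02%, and the next pair had 47.0%. The 17.1% implied by the deposited statistic lies below the pooled values of all 15 pairs, nearest to those of the most even sets. It is not the spread of Slfn4 alone, and how well it goes with each pair was not tested. Leaving out any 1 library of the most even pair kept the fold between 2.001 and 2.59. If the knockout set of 992, 112 and 263 reads held, leaving out its library A would give a fold of 0.956. If the set of 126, 377 and 835 reads held, leaving out its library C would give 1.24. Over all 15 pairs and 6 libraries the fold without 1 library ran from 0.956 to 4.82. The fold of Slfn4 would thus rest on 1 knockout library in 2 of its 3 allowed knockout sets.

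**Figure D2:**
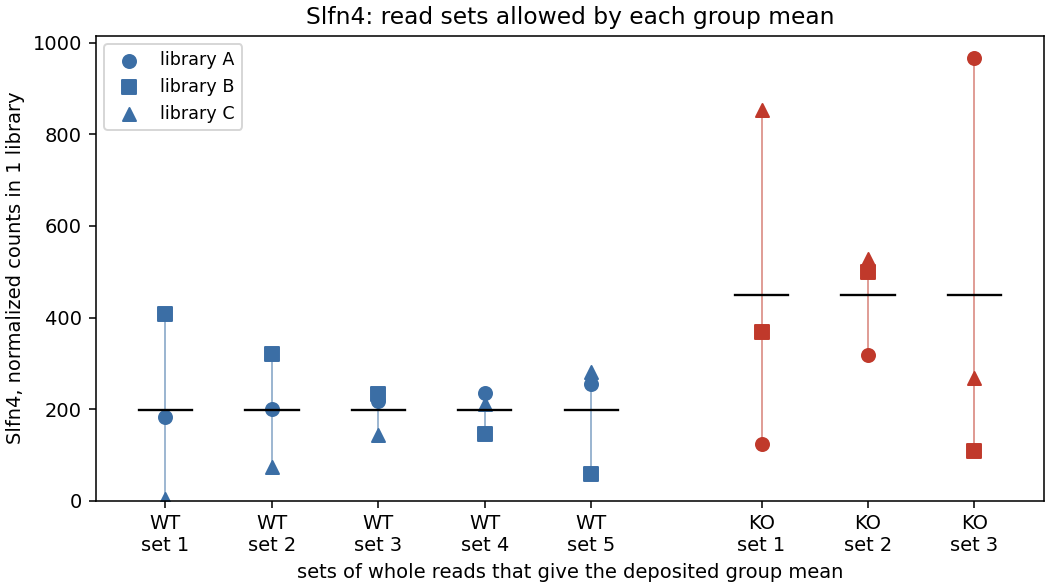
Normalized counts of Slfn4 in libraries A (circle), B (square) and C (triangle) for each set of whole reads that gives the deposited group mean, 5 sets for wild type (WT, blue) and 3 for knockout (KO, red); the black bar is the group mean, 198 or 449. Knockout set 2 (318 to 528) lies above wild type sets 3 and 4, while the other knockout sets reach down to 123 and 110.

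Slfn3, the close copy of Slfn4 that lies just after it on the same strand (83191330 to 83215154), had a smaller ratio. In the authors' deposited table its means were 172 and 208 normalized counts, a log2 ratio of 0.27 ± 0.19 (approximate SE) with an adjusted p of 0.841. The approximate interval of its fold was 0.929 to 1.57, which does not reach the 1.69 at the lower end of that of Slfn4 (1.69 to 3.03). The difference between these 2 genes was not tested. The intervals of Slfn9 (1.05 to 1.77) and of the pseudogene Slfn10-ps (1.02 to 2.38) did overlap that of Slfn4.

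Among the short members, Slfn2, the quiescence factor, averaged 2141 and 2389 normalized counts (authors' deposited table). Its log2 ratio was 0.16 ± 0.078 (approximate SE), with an unadjusted p of 0.0432 and an adjusted p of 0.559 there. Slfn1, the founding member, which restrains T cell growth when overexpressed, averaged 404 and 485 (authors' deposited table; log2 ratio 0.26 ± 0.12, adjusted p = 0.438). Neither gene passed the adjusted threshold.

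Among the long members the pair of near copies had the larger ratios and Slfn5 the smallest. Slfn8 averaged 384 and 482 normalized counts (authors' deposited table; log2 ratio 0.33 ± 0.12, unadjusted p = 0.00626, adjusted p = 0.221), the lowest adjusted p of the 6 uncalled members. Slfn9 had means of 136 and 186 there (log2 ratio 0.45 ± 0.19, adjusted p = 0.416). By the authors' deposited table Slfn5 averaged 10349 and 10642, a log2 ratio of 0.04 ± 0.075 (adjusted p = 0.997), and an approximate interval of its fold of 0.929 to 1.14. Slfn5, Slfn8 and Slfn9 are the members whose promoters held the interferon-stimulated element. Its part in their folds of 1.03, 1.25 and 1.36 was not tested. An exact match in a short window, or its absence, as in Slfn4, does not show whether a gene responds to interferon.

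**Figure D3:**
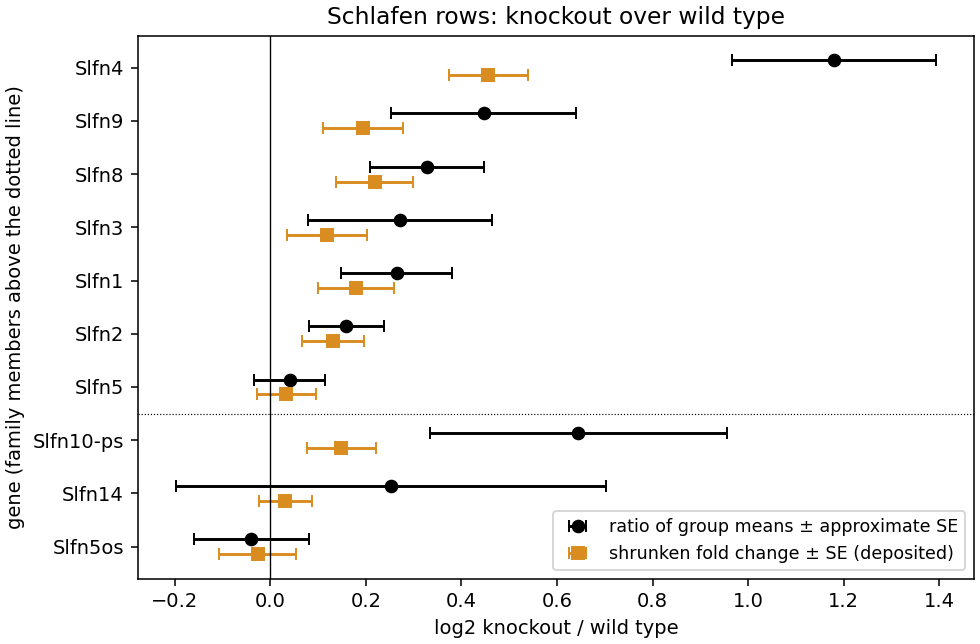
Log2 ratio of knockout over wild type for each tested Slfn row, from the group means with the approximate SE (black circles) and as the authors' shrunken fold change with its SE (orange squares), members above the dotted line. Slfn4 has the highest ratio at 1.18, 5 members lie between 0.16 and 0.45, and Slfn5 is at 0.04.

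The rows outside the family gave further values from the same cluster. The pseudogene Slfn10-ps averaged 45.8 and 71.5 normalized counts (authors' deposited table; log2 ratio 0.64 ± 0.31, unadjusted p = 0.0383, adjusted p = 0.537). Its wild type mean allows 1 set of reads, 57, 44 and 36, and its knockout mean 3 sets, of which the most even is 51, 93 and 72. Even in that set the lowest knockout library, at 49.7 normalized counts, lay below the highest wild type library, at 56.1. Slfn14, a gene known from red cell and platelet precursors, had 15, 21 and 17 reads in wild type and 26, 17 and 21 in knockout, which overlap (authors' deposited table, adjusted p = 0.997). Slfnl1 had 2, 4 and 4 reads against 3, 2 and 3, and no adjusted p. Slfn5os, which overlaps Slfn5 on the opposite strand, averaged 385 and 374 (authors' deposited table; adjusted p = 0.997). The kit named in the labels is not a stranded one, so reads of Slfn5 and Slfn5os cannot be told apart where they overlap.

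No gene around the cluster passed the authors' threshold. The 7 members span 264 kb, and the stretch from 1 Mb before to 1 Mb after them (chromosome 11, 81951349 to 84215154) holds 35 tested genes that are no Schlafen rows. Of these 0 were called by the authors' DESeq2 adjusted p and 1 had an unadjusted p under 0.05, against 1.09% and 8.47% of all tested rows. Their median log2 ratio was -0.02, with 16 higher and 19 lower. No tested gene lay between the members other than Slfn rows. The nearest neighbours were Unc45b, a myosin chaperone gene, at 1887 and 1757 normalized counts (authors' deposited table; adjusted p = 0.859), and AI662270, at 499 and 556 (adjusted p = 0.860). The gene with the unadjusted p under 0.05 was Wfdc17, at 222 and 304 normalized counts (authors' deposited table; log2 ratio 0.45 ± 0.18, adjusted p = 0.309). The lowest ratios of the stretch belonged to the chemokine genes Ccl4 and Ccl3, at -0.38 ± 0.28 and -0.36 ± 0.22 (adjusted p = 0.865 and 0.754).

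**Figure D4:**
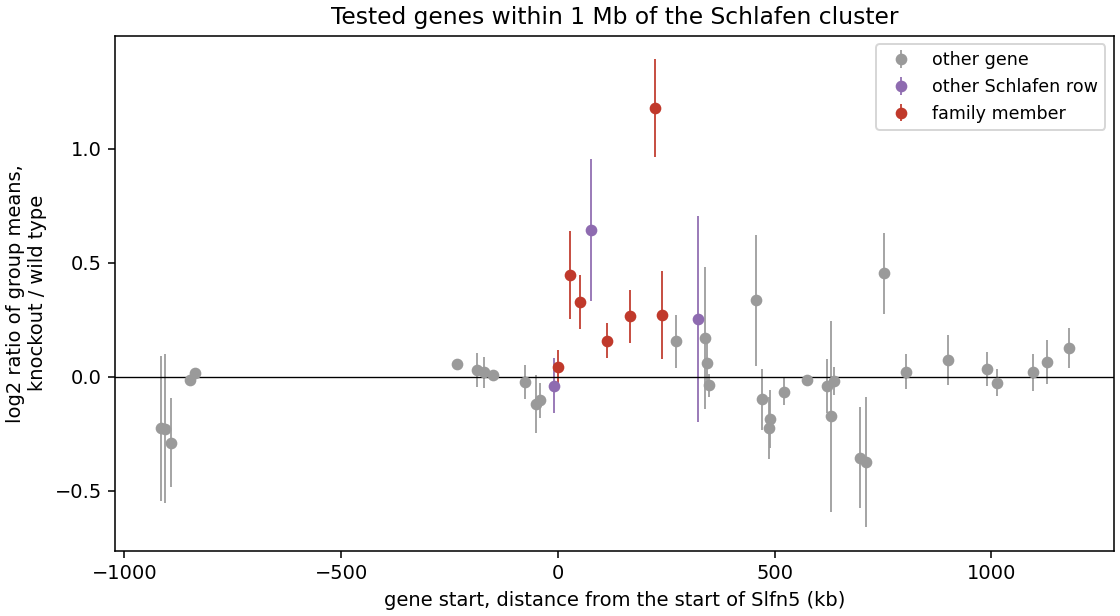
Log2 ratio of group means, knockout over wild type, for each tested gene within 1 Mb of the cluster, by the distance of its start from that of Slfn5 in kb; red points are members, purple points other Slfn rows, grey points other genes, and bars are the approximate SE (none drawn where the Wald statistic is under 0.2 in size, since it is then poorly defined). The members from Slfn9 to Slfn3 lie above 0, and the 35 grey points lie between -0.38 and 0.45.

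Since several Schlafen genes are interferon-inducible, 39 tested interferon-stimulated genes were set beside them. Rsad2, which encodes the antiviral protein viperin, was 1.56-fold higher (271 to 424 normalized counts; authors' deposited table, adjusted p = 0.0209) and was the 1 gene of the list called, against 1.09% of all tested rows. Of the list 15 genes had higher and 24 lower means in knockout, with a median log2 ratio of -0.02, against 0.27 for the Schlafen members. Ifit1, a classical interferon target, averaged 1248 and 996 (authors' deposited table; log2 ratio -0.32 ± 0.12, adjusted p = 0.277). Among 12 genes of interferon receptors and their signalling 0 were called by the authors' DESeq2 adjusted p, and 0 had an unadjusted p under 0.05. The shares of all tested rows were 1.09% and 8.47%, and with 12 genes a count of 0 lies near both. By the authors' deposited table the kinase gene Jak1 averaged 12534 and 12749 normalized counts, and the receptor gene Ifngr1 6078 and 6092.

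Of the markers of neutrophils, which are known to express Slfn4, 10 were called higher in knockout. Of 22 genes of the neutrophil list 21 were in the table and 19 tested; all 10 called genes were higher and 0 lower, against 0.592% and 0.497% of all tested rows, and 17 had higher and 2 lower means. The median log2 ratio of the list was 0.56. The called genes include Cxcr2, a chemokine receptor, 2.004-fold higher, Csf3r, the receptor of granulocyte colony-stimulating factor, 1.603-fold, and S100a9 and S100a8, the calprotectin subunits, 1.73-fold and 1.59-fold higher in the authors' deposited table. Retnlg, Clec4d, Mmp8, Fpr1, Lcn2 and Stfa2l1 were also called, at 1.56-fold, 1.69-fold, 1.47-fold, 1.51-fold, 1.26-fold and 2.37-fold. The most abundant gene of the list, Hdc, the histidine decarboxylase gene, was not called, at 3546 and 3618 normalized counts by the authors' deposited table. The 2 genes with lower means, neither called, were Ltf, the lactoferrin gene of granules, at 2449 and 1366 (log2 ratio -0.84 ± 0.66), and Fpr2, a formyl peptide receptor, at 568 and 494 (authors' deposited table). The summed means of the tested list were 18098 and 22690 normalized counts. Other granule genes, Ngp (6.63 and 14.3) and Camp (0.694 and 1.97), had low means in both genotypes in the authors' deposited table and no adjusted p. The fold of Slfn4, 2.26, was above that of 9 of these 10 genes. The part of these markers in the value of Slfn4 was not tested.

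**Figure D5:**
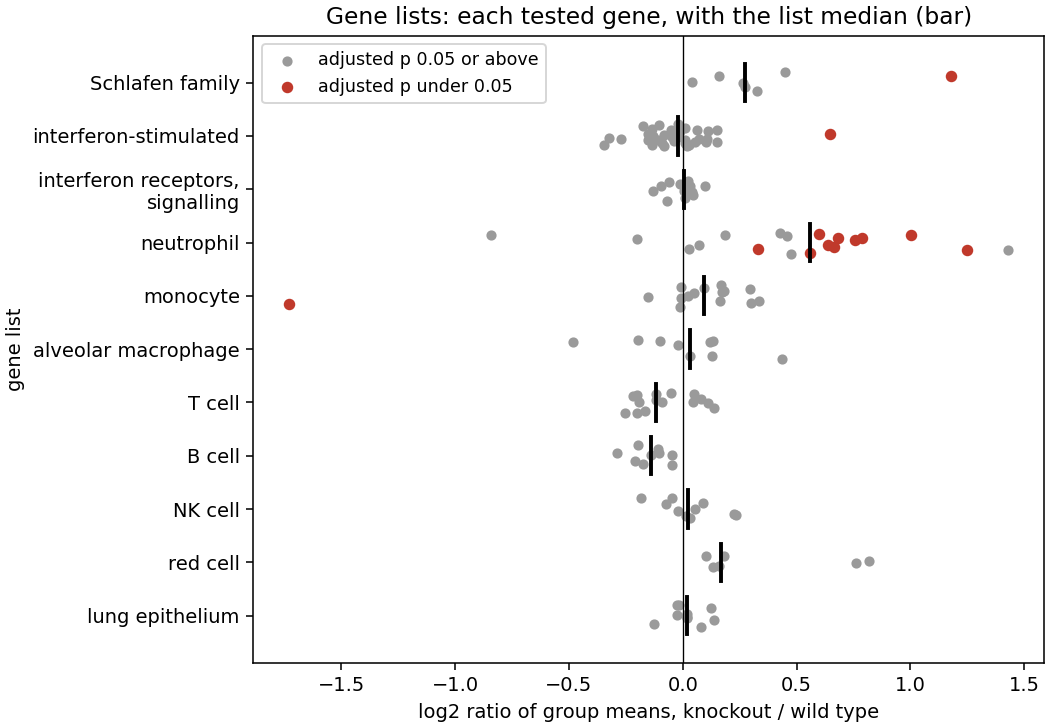
Log2 ratio of group means for every tested gene of each list, with red points called by the authors' adjusted p under 0.05, grey points not called, and a black bar at the list median. The Schlafen family has a median of 0.27, between the neutrophil list at 0.56 and the red cell list at 0.17. The monocyte list is at 0.09, and the interferon-stimulated list sits at -0.02.

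The other blood cell lists had medians closer to 0. Among 15 monocyte genes 1 was called, Nr4a1, a nuclear receptor of patrolling monocytes that is also induced by stimulation, and it was lower (14598 and 4408 normalized counts; authors' deposited table, adjusted p = 0.00256). For comparison, 1.09% of all tested rows were called in either direction. The list had a median log2 ratio of 0.09, with 10 higher and 5 lower means. At an unadjusted DESeq2 p under 0.05 it had 4 higher and 2 lower genes. Ly6c2 and Ccr2, markers of classical monocytes named after their values were seen, were among the 4. Their log2 ratios were 0.30 ± 0.12 and 0.33 ± 0.12 (adjusted p = 0.300 and 0.235 in the authors' deposited table). The T cell list, of the cells in which Slfn1 and Slfn2 are best known, had 0 of 15 genes called, 5 higher and 10 lower means and a median of -0.12. Its most abundant gene, Tcf7, averaged 1965 and 1749 normalized counts (authors' deposited table). Before adjustment 3 of the 15 T cell genes had a p under 0.05, all lower, against 8.47% of all tested rows in either direction.

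In the alveolar macrophage, B cell, natural killer cell, red cell and lung epithelium lists 0 of 9, 9, 10, 6 and 10 tested genes were called by the authors' DESeq2 adjusted p, and 1, 3, 0, 1 and 1 had an unadjusted p under 0.05, against 1.09% and 8.47% of all tested rows. Their median log2 ratios were 0.03, -0.14, 0.02, 0.17 and 0.02. The most abundant gene of each was Chil3, Cd79b, Gzma, Hbb-bs and Sftpc. All 9 B cell genes had lower means in knockout, with sums of 10295 and 9357 normalized counts. All 6 red cell genes had higher means, with sums of 81726 and 89590. The part of either list in the values of the Schlafen genes was not tested. A further list of 9 tested genes of cell quiescence and transfer RNA handling, the processes tied to Slfn2, had 0 called and 5 at an unadjusted p under 0.05, 1 higher and 4 lower, where 8.47% of all tested rows had such a p. It includes Btg2, an antiproliferative and immediate-early gene, at 34797 and 19782 normalized counts in the authors' deposited table.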

How the data were processed

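Whole lung RNA of 6 libraries (500 ng, TruSeq RNA kit v2, 50 bp paired ends, mean RNA integrity number 9.45) was measured, per the labels' protocols. Tools listed without role or order, per the submitters' processing notes, are DESeq2, STAR 2.5.1b, Bowtie2, bedtools and SAMtools, with the build mm10. The counting rule is not given in the sources used here. Per the file headers, the authors deposited group means as a signal in units of normalized counts, a shrunken log2 fold change with its standard error, the Wald statistic (a score), and each p-value before and after adjustment. No values of single libraries were used other than those derived from the means.

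Computed here (Python 3.11.15, scipy 1.17.1, Biopython 1.88) were ratios of means, an approximate standard error (log2 ratio divided by the Wald statistic, with intervals at 1.96 standard errors), sets of whole reads, motif matches, coding sequence identity and shared stretches of 50 bases. Coding sequences were compared in place of proteins. A row was called at an adjusted p under 0.05; lists used the row with the highest mean of a symbol. No count model, set test or test between libraries was run. Derived size factors lay between 0.961 and 1.03, and all 2406 wild type and 2453 knockout printed means under 40 gave exactly 1 set of reads. The other members allowed 27 to 331 sets or were not attempted (Slfn2, Slfn5). The approximate standard error and the sets of reads were checked on simulated data with known answers. The simulation gave every gene the same known dispersion, so the dispersion estimate of DESeq2 was not covered. For the read sets it used the wild type factors and means below the knockout mean of Slfn4.

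The members and lists were chosen with earlier results of these data known. Named genes are all Slfn rows, the targeted gene, called members of each list (where none was called, up to 3 of the most abundant), and the nearest or called neighbours of the cluster. Ifit1, Ly6c2, Ccr2, Ngp, Camp, Hdc, Ltf, Fpr2, Wfdc17, Ccl3 and Ccl4 were named after their values were seen. Gene models are GENCODE M21 and promoters RefSeq GRCm38.p6, the build of mm10; all 7 members matched by symbol.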

Additional observations from a re-analysis of the deposited data

How the results depend on the processing

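The number of members called by the authors' DESeq2 adjusted p was 1 at a threshold of 0.05, 0.01 or 0.1 and with rows of a mean of at least 50. The median log2 ratio of the members, 0.27, was 0.18 with the shrunken fold change, and 0.27 with 1 added to both means, centred on all tested rows, or without Slfn4 (the last added after the data were seen). Alternative values were set against the approximate standard error of the gene. For a median over genes, the median of their standard errors was used, which is not a standard error of that median. Of 57 such values 55 moved by less and kept direction. The other 2, the shrunken values of Slfn4 (0.46 against 1.18) and Slfn9 (0.19 against 0.45), moved by more. Shrinkage pulls ratios towards 0 by construction. The 31 alternative counts equalled the main ones except for the promoter element. With 1 library left out, the log2 ratio of Slfn4 ranged from 1.001 to 1.38 for the most even read sets. The interferon-stimulated element was in 3 member promoters, and in 2 (Slfn8 and Slfn9) with the 150 bases before the start or with a C required after the last GAAA. No paired analysis was possible because the labels give no replicate numbers and the table holds group means; calls without each library were not run for the same reason. Depth of single libraries is known only as relative size factors.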
